A study of Homo sapiens with 2 samples.

Results

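Peaks of Musashi-2 (MSI2) on the RNAs of 7 long noncoding RNA genes are described here: MALAT1, NEAT1, NORAD, GAS5, SNHG1, OIP5-AS1 and TUG1. A peak was taken as theirs if the Ensembl gene ID in its name was that of one of the 7, which gave 96 of the 25920 peaks of replicate 1 and 83 of the 25243 peaks of replicate 2. These are 7 of the 8801 gene IDs with a peak in either library. MSI2 is a Musashi protein, which binds RNA, and both libraries came from NB4, an established line of human acute promyelocytic leukaemia cells with no genotype or treatment named in the labels. Both replicates were CLIP-seq libraries of MSI2, made from the same number of cells after crosslinking with ultraviolet light at 400 mJ per square centimetre, so that RNA touching the protein was fixed to it before an antibody recovered it. As no library of input RNA, of a control antibody or of cells lacking MSI2 was analysed here, MSI2 binding, the amount of each RNA in the cells and repeatable background cannot be told apart. The 2 libraries form 1 group, and the labels number them without saying that they came from separate cultures.

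Long noncoding RNAs are transcripts that act as RNA or whose transcription itself has an effect. MALAT1 is an abundant nuclear RNA of the speckles that hold splicing factors, and NEAT1, its neighbour on the chromosome, is the scaffold on which paraspeckles assemble. NORAD is a largely cytoplasmic RNA known for holding Pumilio proteins, which are regulators of mRNA decay. GAS5 and SNHG1 are spliced host genes whose introns carry small nucleolar RNAs (snoRNAs), the guides of ribosomal RNA modification, while their spliced exons are short-lived in the cytoplasm. OIP5-AS1, also called cyrano, is known for a conserved site that triggers the decay of a microRNA, and TUG1 is a widely expressed RNA linked to chromatin regulation. Musashi proteins bind short single-stranded motifs and are best known as regulators of mRNA translation and stability. The names were checked against RefSeq's GRCh38.p14 gene table, in which all 7 were found by symbol on the chromosome of their peaks. For the 6 with a promoter entry, the strand was also that of the peaks. The table lists 6 of the 7 as lncRNA genes and TUG1 as protein-coding. Positions are hg19, the build of the deposited lists, counted from 1. No sequence of the sites is shown, as no sequence of that build was used here.

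All 7 genes carried peaks in both libraries, against a background of 63.1% of the 8801 gene IDs. In the order of replicate 1 and then replicate 2, MALAT1 had 19 and 19 peaks, and OIP5-AS1 had 21 and 18. NORAD had 14 in each, and NEAT1 had 14 and 7. The smaller counts were 10 and 11 for TUG1, 9 and 8 for GAS5, and 9 and 6 for SNHG1. The counts stood close in each replicate pair except at NEAT1 and SNHG1, which had more in replicate 1. The median gene ID had 2 peaks in each library. OIP5-AS1 ranked 24th of 7252 gene IDs by number of peaks in replicate 1, and 56th of 7101 in replicate 2.

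**Figure D1:**
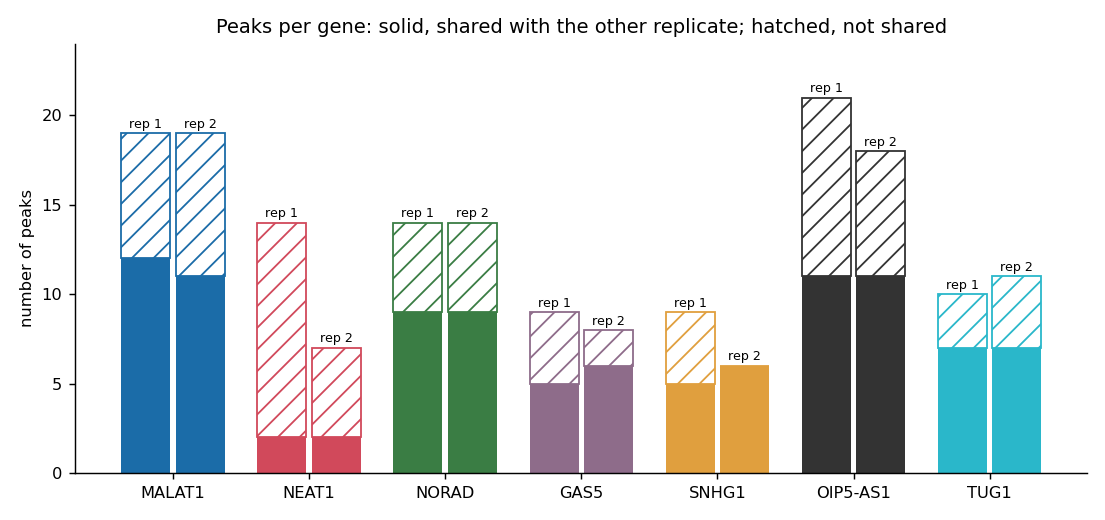
Number of peaks (vertical axis) of each gene in replicate 1 (left bar of each pair) and replicate 2 (right bar). Solid parts are peaks overlapped by a peak of the other replicate and hatched parts are not; NEAT1 has 2 shared peaks in either library, and all 6 peaks of SNHG1 in replicate 2 were shared.

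The tally of a peak is the whole number that closes its name, which behaved like a count of reads though no header says so. Pooled over the 7 genes, tallies stood higher than in the lists as a whole, though not in every gene. The pooled median tally was 7.5 in replicate 1 and 7 in replicate 2, against 4 over all peaks of either list, and 36.5% and 24.1% of their peaks had a tally of 10 or more, against 13.2% and 9.53%. The lowest tally, 3, was that of 8.33% and 12% of their peaks and of 35.7% and 45.3% of all. They held 0.37% and 0.329% of the peaks but 0.609% and 0.501% of the summed tallies. By gene, the median tally was highest in MALAT1, at 14 and 10, while NEAT1 had 4 in both libraries, and in replicate 2 TUG1 had 4 and GAS5 3, at or below the median of the list. Summed by gene, the tallies of MALAT1 ranked 2nd of all gene IDs in replicate 1, with 339, and 12th in replicate 2, with 241.

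Lengths differ widely among these genes, so levels were compared as summed tally per kb of RefSeq gene length, introns included. Introns lower the level of a spliced gene, so the order of the genes depends on this choice. Levels per kb of spliced RNA were not computed. In replicates 1 and 2 this level was 38.6 and 27.5 per kb for MALAT1, whose gene is 8779 nt long. It was 27.4 and 14.3 for SNHG1 (3908 nt), and 22.1 and 21.3 for NORAD (5343 nt). Of the SNHG1 tally, 52 of 107 and 22 of 56 lay in peaks that a peak of another gene ID overlapped. MALAT1 was the highest in both libraries, though its lower value lay just above the higher one of SNHG1, and the ranges of SNHG1 and NORAD overlapped. The level was 11.3 and 6.41 per kb for GAS5 (5145 nt) and 8.59 and 6.32 for TUG1 (10131 nt), ranges that overlapped as well. OIP5-AS1 (30642 nt) had 5.61 and 4.14 per kb, and NEAT1 (22743 nt) had 2.90 and 1.49, below the others in both libraries. Of the OIP5-AS1 peaks, 20 of 21 in replicate 1 and 17 of 18 in replicate 2 lay in 7.06 kb, a small part of that gene's length. In peaks per kb of gene length, introns again included, NORAD was the densest gene, with 2.62 in each library, and NEAT1 had 0.616 and 0.308. The tallies are as deposited, and those of all peaks summed to 155598 in replicate 1 and 133644 in replicate 2, a ratio of 1.16.

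**Figure D2:**
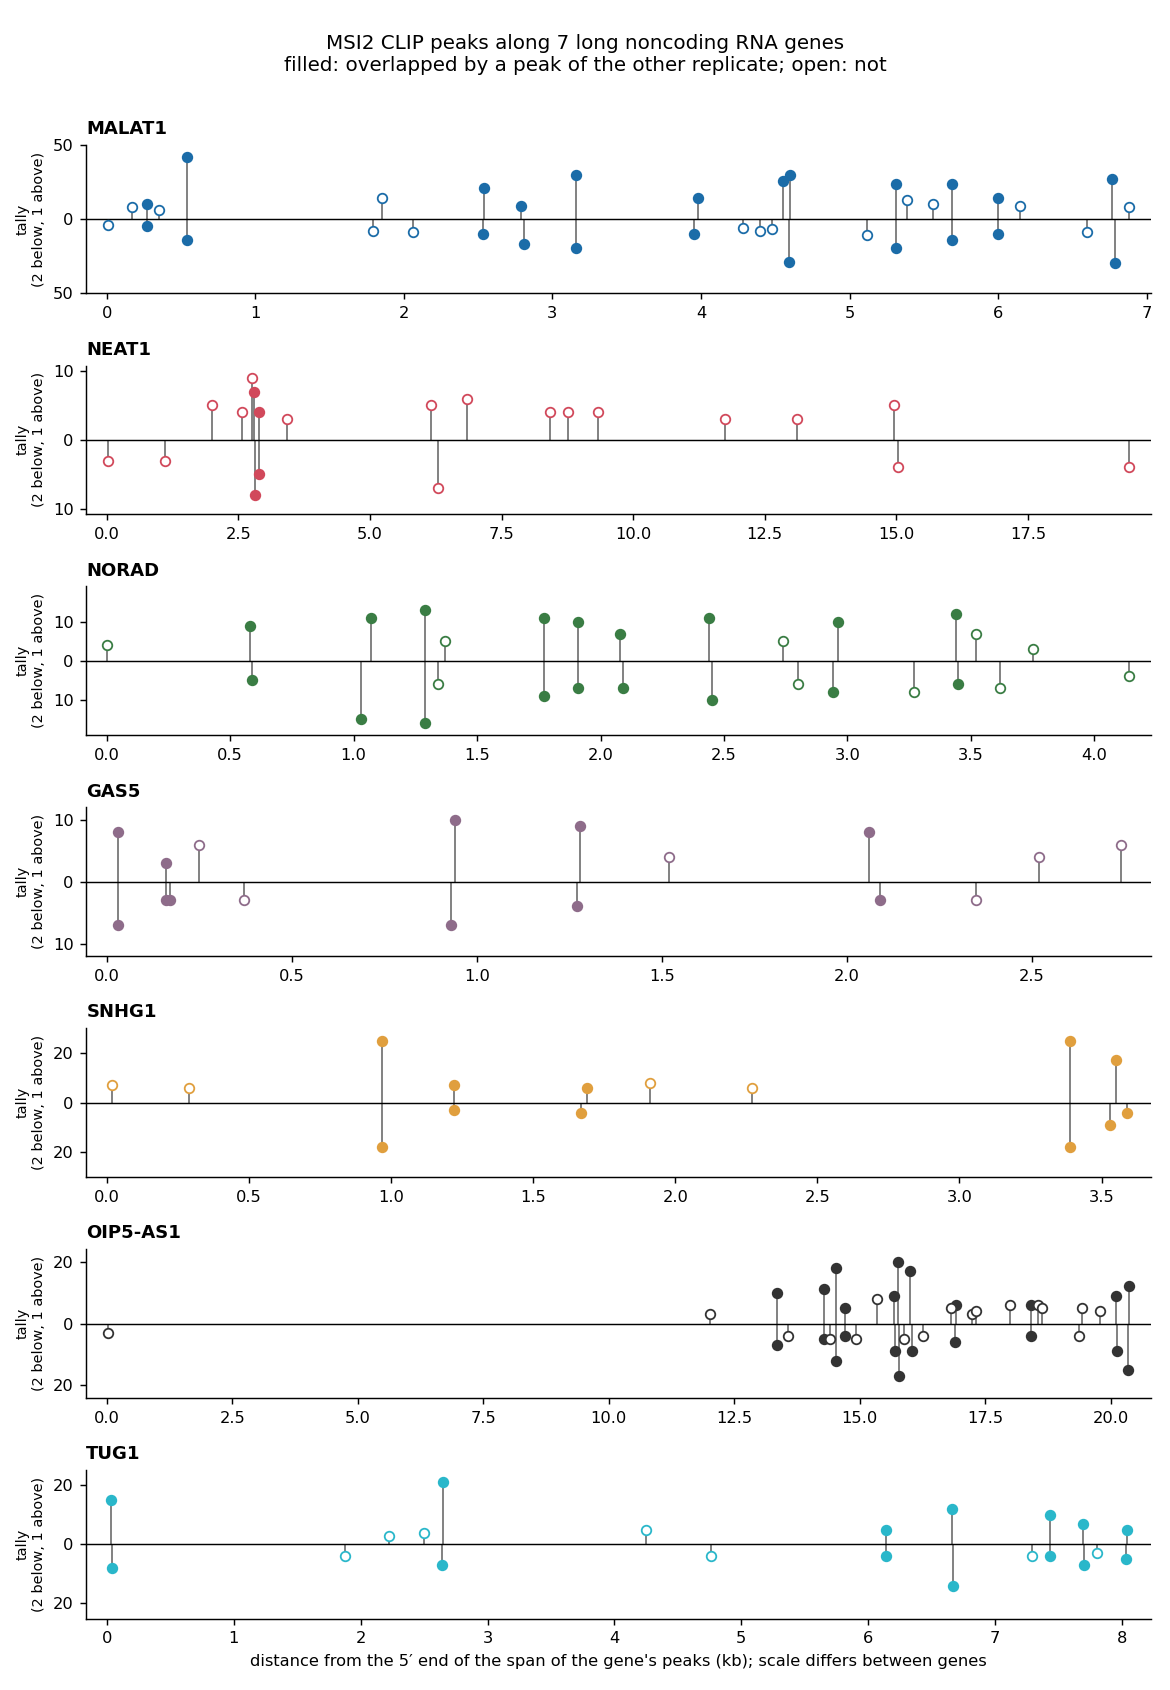
Each peak drawn at its midpoint, in kb from the 5′ end of the span of its gene's peaks over both libraries, with the tally as height, replicate 1 above and replicate 2 below the line. Filled circles are peaks overlapped by a peak of the other replicate. In OIP5-AS1 they stand in the last 7.06 kb of a span of 20.4 kb, whose 5′ end is 1 unshared replicate 2 peak with a tally of 3. In TUG1 they run over the whole span of 8.06 kb. The scales of both axes differ between genes.

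MALAT1 (ENSG00000251562, chromosome 11, plus strand) had peaks from 65266559 to 65273448, and peaks recurred along most of that 6.89 kb. Of its 19 peaks in each library, 12 in replicate 1 and 11 in replicate 2 were shared, meaning that a peak of the other library on the same strand overlapped them by at least 1 nt. Shared peaks held 79.9% and 74.3% of the gene's tally. The strongest recurrent region was at 65271104 to 65271192, where replicate 2 listed 1 peak with a tally of 29. Replicate 1 listed 2 peaks there, touching end to end, at 65271083 to 65271128 with a tally of 26 and at 65271129 to 65271185 with a tally of 30. Near the 3′ end of the span, a peak at 65273280 to 65273375 had a tally of 27 in replicate 1, and its partner at 65273300 to 65273407 had 30 in replicate 2. Both libraries thus had tallies of 26 or more at these places. The pair at 65269695 to 65269748 had tallies of 30 and 20, and that at 65271832 to 65271911 had 24 and 20.

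The highest tally of all 179 peaks was found at the other end of MALAT1 and differed between the libraries. It was 42 at 65267055 to 65267138 in replicate 1, with a deposited p of 2.49e-22, and 14 at 65267060 to 65267134 in replicate 2, with a p of 3.17e-07. The centres of the short inner intervals that the lists give within each peak lay 32 nt apart. A stretch of 1195 nt after this site, from 65267139 to 65268333, held no peak in either library, the longest such stretch of the gene. The strongest peak without a partner was at 65268384 to 65268430 in replicate 1, with a tally of 14. It lay 17 nt from a replicate 2 peak at 65268334 to 65268366 with a tally of 8, so that close peaks of both libraries could fail to overlap. In replicate 2 the strongest without a partner was at 65271662 to 65271691, with a tally of 11, and it lay 140 nt from the nearest peak of replicate 1.

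NEAT1 (ENSG00000245532, chromosome 11, plus strand) had low tallies and recurrent sites at a single place. Of its 14 peaks in replicate 1 and 7 in replicate 2, 2 in each were shared, or 14.3% (95% Wilson interval 4.01% to 39.9%) and 28.6% (8.22% to 64.1%). Over all peaks of the lists the share was 35.7% in replicate 1 and 37.3% in replicate 2, inside both intervals, so the gene's shares could not be told from those of the lists. Both recurrent sites lay within 0.136 kb of each other in a span of 19.4 kb. One was at 65193781 to 65193825 with a tally of 7 in replicate 1, and at 65193786 to 65193844 with a tally of 8 in replicate 2. The other was at 65193889 to 65193916 with tallies of 4 and 5. These sites belong to the 5′ part of the span, and it was there too that replicate 1 had its highest tally, 9, at 65193728 to 65193780. That peak ended against the first recurrent site and lay 5 nt from the replicate 2 peak there, so it counted as not shared.

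Further along NEAT1 the libraries differed. From 65197345 to 65206020 replicate 2 had no peak over 8676 nt, while replicate 1 listed 7 peaks there with tallies of 3 to 6. The last of these, at 65205941 to 65206003 with a tally of 5, lay 17 nt from the replicate 2 peak that ends the stretch. That peak was at 65206021 to 65206052, with a tally of 4. Replicate 2 alone had peaks at 65191009 to 65191051, with a tally of 3, and at 65210405 to 65210449, with a tally of 4, which set the ends of the span. Its strongest peak without a partner was at 65197281 to 65197344, with a tally of 7, and lay 83 nt from a replicate 1 peak with a tally of 5. Most of these values are near the lowest tally listed, and the gene's median tally was 4 in both libraries. The running number within the peak names reached 20 numbers for NEAT1 in replicate 1, of which 6 were absent. In replicates 1 and 2, 5.88% and 9.78% of the numbers were absent over the 7 genes, against 8.77% and 9.52% over all gene IDs. What an absent number means is not explained by a header or label. In MALAT1, NORAD, GAS5 and SNHG1 no number was absent in either library.

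NORAD (ENSG00000260032, chromosome 20, minus strand) carried a series of sites along its span and was the gene whose libraries stood closest in total. Its 14 peaks summed to a tally of 118 in replicate 1, and 14 peaks summed to 114 in replicate 2. Of these, 9 in each library were shared (64.3%, 38.8% to 83.7%). From the 5′ end, the shared peaks had tallies in replicates 1 and 2 of 9 and 5 at 34637404 to 34637445, and of 11 and 15 at 34636907 to 34636963. They were 13 and 16 at 34636696 to 34636748, the strongest site of the gene in either library. Next came 11 and 9 at 34636214 to 34636255, 10 and 7 at 34636074 to 34636124, and 7 and 7 at 34635909 to 34635944. Toward the 3′ end the tallies were 11 and 10 at 34635540 to 34635592, 10 and 8 at 34635045 to 34635061, and 12 and 6 at 34634538 to 34634593. All 9 sites thus had tallies between 5 and 16, with no site that dominated. The strongest peaks without a partner had tallies of 7, at 34634471 to 34634510 in replicate 1, and 8, at 34634719 to 34634758 in replicate 2. Peaks were separated by a median of 211 nt in replicate 1 and 170 nt in replicate 2, and no stretch over 555 nt within the span was free of peaks in both.

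The snoRNA host GAS5 (ENSG00000234741, chromosome 1, minus strand) had 9 peaks in replicate 1 and 8 in replicate 2, with low tallies that summed to 58 and 33. At the 5′ end of the span, a site at 173836016 to 173836071 had tallies of 8 and 7, and its borders differed by 1 nt between the libraries. The strongest site, at 173835098 to 173835170, had 10 and 7. Those at 173834764 to 173834820 and 173833982 to 173834045 had 9 and 4, and 8 and 3. A narrow peak of 12 nt at 173835902 to 173835913, with a tally of 3, was overlapped by 2 peaks of replicate 2, each with a tally of 3. In all, 5 of 9 and 6 of 8 peaks were shared. The strongest unshared peaks of replicate 1 had a tally of 6, at 173835800 to 173835842 and 173833306 to 173833354, and the 2 unshared peaks of replicate 2 had a tally of 3.

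The other host, SNHG1 (ENSG00000255717, chromosome 11, minus strand), had sites with higher tallies, which summed to 107 and 56. At 62622089 to 62622161 both libraries listed a peak with identical borders, with tallies of 25 and 18 and deposited p-values of 2.28e-14 and 1.14e-11. At the 3′ end, a peak at 62619646 to 62619758 also had 25 and 18. Beside it, 1 peak of replicate 1 at 62619496 to 62619593, with a tally of 17, was overlapped by 2 of replicate 2, with tallies of 9 and 4. These 3 places held 67 of the gene's 107 in replicate 1 and 49 of its 56 in replicate 2. The sites at 62621385 to 62621420 and 62621851 to 62621892 had lower tallies, 6 and 4 for the former, and 7 and 3 for the latter. Of 9 peaks in replicate 1, 5 were shared, and of 6 in replicate 2, all 6 were.

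The host genes were also the members in whose spans other gene IDs had peaks. On the same strand, 10 peaks of 8 other gene IDs lay inside the spans of SNHG1 (5 in replicate 1 and 2 in replicate 2) and GAS5 (2 and 1), and no such peak lay in the spans of the remaining 5 genes. All 10 overlapped a peak of the host, 9 of them wholly inside it, and 7 of the 10 had the same tally as that host peak. RefSeq's GRCh38.p14 annotation places 9 snoRNA genes within SNHG1 and 11 within GAS5. The files do not pair the other IDs with names, so whether these IDs are those snoRNA genes is not stated here. The strong SNHG1 site at 62622089 to 62622161 was one of these places. Inside it, 1 other ID had a peak of 27 nt with a tally of 25 in replicate 1 and one of 27 nt with a tally of 16 in replicate 2. All 4 unshared peaks of SNHG1 in replicate 1, with tallies of 6 to 8, held such a nested peak. The strongest 3′ sites of the gene, at 62619496 to 62619758, held none. Host peaks overlapped by another ID held 52 of the summed tally of 107 of SNHG1 in replicate 1 and 22 of 56 in replicate 2. In GAS5 they held 17 of 58 and 4 of 33. Whether equal tallies under 2 IDs stand for the same reads was not tested, and the tally at these places could not be divided between the host and the nested gene.

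OIP5-AS1 (ENSG00000247556, chromosome 15, plus strand) had the most peaks of the 7 in replicate 1 and 1 fewer than MALAT1 in replicate 2, and nearly all lay in the 3′ part of its span. In replicate 1, 20 of 21 peaks, and in replicate 2, 17 of 18, lay in the 7.06 kb from 41591668 to 41598730, in a span of 20.4 kb. The 5′ end of that span was set by 1 unshared peak of replicate 2, at 41578338 to 41578374, with a tally of 3. A stretch of 11974 nt after it held no peak in either library, and all other peaks lay from 41590349 onward. The length of the span and the place of the peaks within it thus rest on that 1 weak peak. In each library 11 peaks were shared. The strongest site had tallies of 20 and 17 at 41594080 to 41594144, with p-values of 9.18e-13 and 9.20e-12. Those at 41592816 to 41592921 had 18 and 12, and at the 3′ end of the span 12 and 15 were found at 41598662 to 41598730. A further 3 sites had a lower tally of 9 in the pair, namely 41594302 to 41594390 with 17 and 9, 41594010 to 41594044 with 9 and 9, and 41598412 to 41598484 with 9 and 9. The tallies of this gene's shared peaks kept a similar order in the libraries (Spearman rho 0.81 over 11 pairs of sites in 1 RNA, as a description). Unshared peaks were weak, the strongest having a tally of 8 at 41593674 to 41593698 in replicate 1 and 5 at 3 places in replicate 2. In replicate 2 the running number reached 25 numbers, of which 7 were absent.

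TUG1 (ENSG00000253352, chromosome 22, plus strand) had recurrent sites at both ends of its span. Of its 10 and 11 peaks, 7 in each library were shared. The 5′-most peak, at 31366731 to 31366792, had tallies of 15 in replicate 1 and 8 in replicate 2, and no peak followed in either library for 1803 nt. The next recurrent site, at 31369302 to 31369454, was the widest peak of the 7 genes in replicate 1, at 153 nt. Its tally was 21 there and 7 in replicate 2. A site at 31373327 to 31373455 was the strongest in replicate 2, with a tally of 14 against 12 in replicate 1. The libraries thus ranked the leading sites of TUG1 differently. The remaining shared sites lay toward the 3′ end, with tallies of 10 and 4 at 31374134 to 31374197, 7 and 7 at 31374399 to 31374449, 5 and 5 at 31374757 to 31374793, and 5 and 4 at 31372848 to 31372892. No unshared peak had a tally over 5 in replicate 1 or over 4 in replicate 2.

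Over the 7 genes, 51 of 96 peaks of replicate 1, or 53.1% (95% Wilson interval 43.2% to 62.8%), and 52 of 83 of replicate 2, or 62.7% (51.9% to 72.3%), were shared. Over all peaks the shares were 35.7% and 37.3%. All 7 genes had a shared peak. Among gene IDs with peaks in both libraries 71.9% had one, and among the 896 with at least 6 peaks in each, the lowest count of the 7 genes, 98.3% did. The share rose with the tally in the 7 genes as in the lists. With a tally of 6 to 9, 46.7% and 60.7% were shared, against 54.9% and 64.9% over all peaks of that tally. With 10 to 14, 84.2% and 88.9% were, against 81.9% and 85.1%. All 16 peaks of replicate 1 and all 11 of replicate 2 with a tally of 15 or more were shared, against 94.9% and 96.1%. At 4 to 5 the shares were 17.4% and 48%, against 28.6% and 38.6%, below the list in one library and above it in the other. In 9 of these 10 classes of tally and library the list's value lay inside the Wilson interval of the 7 genes. The exception was a tally of 3 in replicate 2, with 4 of 10 shared (16.8% to 68.7%) against 15.5%. Intervals cover counting error only, as peaks of one gene are not independent and duplicates were removed with no molecular identifier named.

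**Figure D3:**
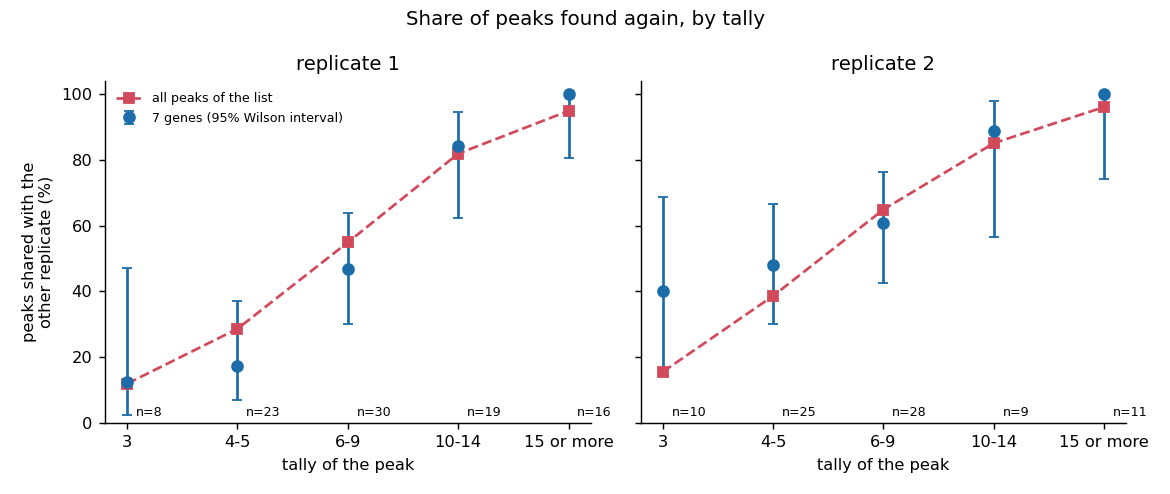
Share of peaks (vertical axis, percent) overlapped by a peak of the other replicate, by tally class, for the 7 genes (circles, with 95% Wilson intervals and the number of peaks) and for all peaks of the same list (squares). The circles rise with the tally, and at 15 or more all 16 and all 11 peaks were shared.

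Shared peaks of these genes were stronger and wider than the others. Their median tally was 11 against 5 in replicate 1, and 8 against 4 in replicate 2, and their median width was 53 against 35 nt and 52.5 against 33 nt. A wider peak is more easily overlapped. Of the unshared peaks, 10 of 45 in replicate 1 and 6 of 31 in replicate 2 lay within 50 nt of a peak of the same gene in the other library. The same count was not made over all peaks of the lists. Whether such closeness is more common in these genes than elsewhere was therefore not tested. The genes also differed in density, as the peaks of replicate 2 covered 13.5% of the span in MALAT1 and 1.62% in NEAT1.

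The 7 genes had 53 overlapping pairs of peaks, and replicate 1 had the higher tally in 36 of them, replicate 2 in 9, with 8 equal. The 36 are 67.9% of the pairs, and replicate 1 was also higher in 56.5% of the 12529 pairs over all gene IDs. The median ratio was 1.39, against 1.19 over pairs of all gene IDs and a ratio of 1.16 for the summed tallies of all peaks. Summed over the 7 genes, the tallies were 947 and 669, a ratio of 1.42. By gene the ratio was 1.04 for NORAD, 1.35 for OIP5-AS1, 1.36 for TUG1, 1.41 for MALAT1, 1.76 for GAS5, 1.91 for SNHG1 and 1.94 for NEAT1, so NORAD alone was below the ratio of the lists. With 1 library a side these ratios have no replicate. The inner intervals of the pairs lay a median of 8 nt apart from centre to centre, and 32 of 53 lay within 10 nt (60.4%, against 68.2% over all gene IDs). As a description over sites that share genes and libraries, tallies of the 53 pairs correlated between the libraries (Spearman rho 0.78, and Pearson r 0.77 for log2 tallies). Over the pairs of all gene IDs the values were 0.62 and 0.71. The pooled values also take in differences in level between genes, and within MALAT1 they were 0.62 and 0.59 over 12 pairs.

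**Figure D4:**
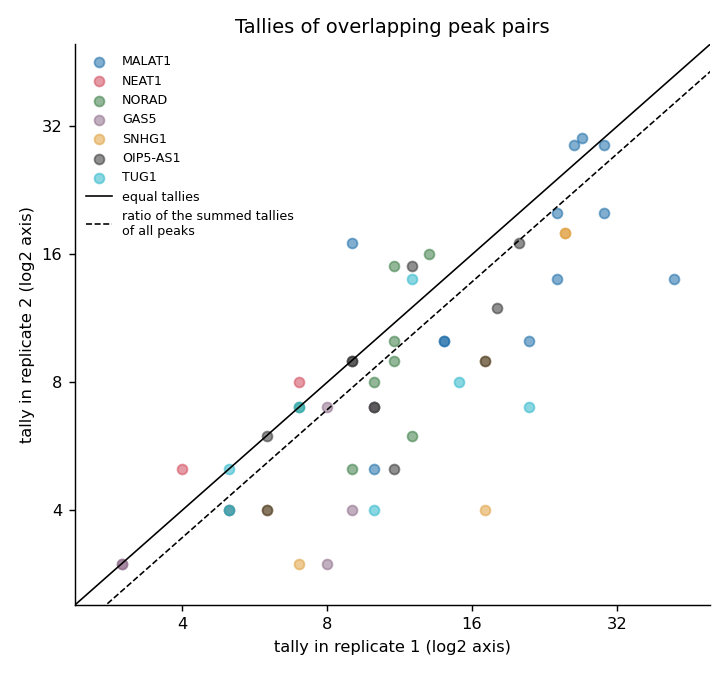
Tally in replicate 1 (horizontal) against replicate 2 (vertical), both on log2 axes, for the 53 overlapping pairs of the 7 genes; darker points are coincident pairs. Of these, 36 (67.9%, against 56.5% of pairs over all gene IDs) lie below the line of equal tallies. The MALAT1 pair with 42 and 14 is at the far right.

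Peaks of these genes had weaker deposited p-values than other peaks with the same tally. In 86 of 96 peaks of replicate 1 (89.6%) and 71 of 83 of replicate 2 (85.5%) the p was above the median of all peaks of that tally in the list, where 49.9% of all peaks lie in both lists. This held for most peaks of each gene, from 4 of 7 for NEAT1 in replicate 2 to 19 of 19 for MALAT1, 9 of 9 for GAS5 and 10 of 10 for TUG1 in replicate 1, and 14 of 14 for NORAD in replicate 2. MALAT1 peaks with tallies of 8 to 10 had a median p of 0.000603 in replicate 1 (6 peaks) and 0.000692 in replicate 2 (7 peaks). The medians were 9.53e-05 (14 peaks) and 9.47e-05 (10 peaks) in the other 6 genes, and 2.67e-05 and 2.33e-05 over all gene IDs. These MALAT1 peaks were also narrower, with a median width of 26.5 nt in replicate 1 and 36 nt in replicate 2, against 59 and 57 nt over all gene IDs. In the other 6 genes the median width was 52.5 nt in both libraries, closer to the lists, though their median p was weaker too. The part of width and of the gene's own depth in the p was not tested. Of all peaks of the 7 genes, 35 of 96 and 20 of 83 had a tally of 10 or more, as had 13.2% and 9.53% of all peaks. By p, 19 of 96 and 16 of 83 were among the strongest 10% of their list, which is more than 10% of their peaks in each library.

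**Figure D5:**
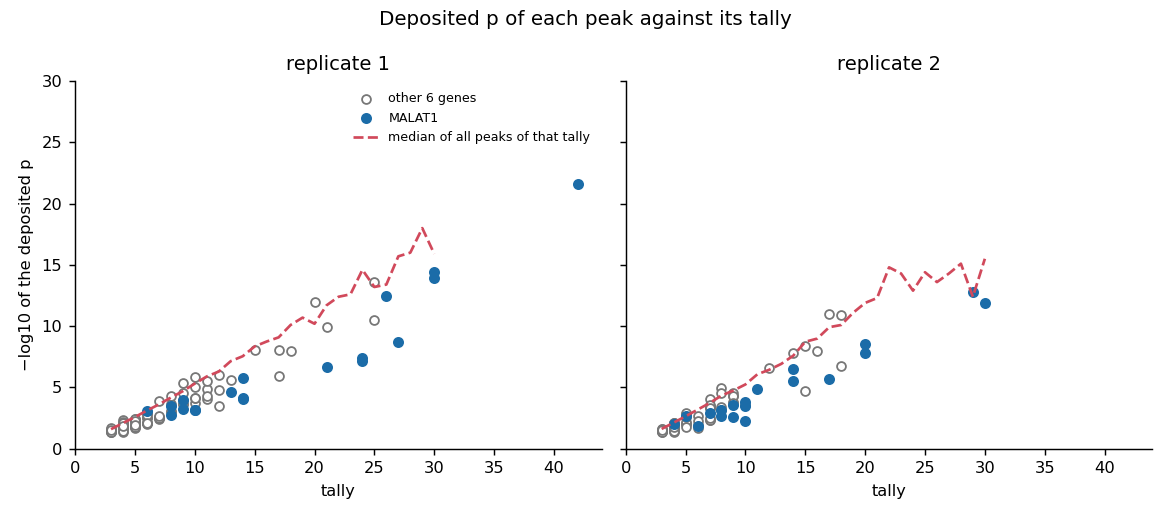
Minus log10 of the authors' p (vertical axis) against the tally (horizontal axis) for the peaks of MALAT1 (filled), the other 6 genes (open) and the median of all peaks of each tally up to 30 (dashed line; few peaks stand behind it at the high end). In replicate 1 the MALAT1 peaks with tallies up to 30 lie below the line, which does not reach the one with 42.

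The pattern of OIP5-AS1, the gene with the most peaks summed over both libraries, was set beside that of every other gene ID by the summed difference in peaks of replicate 1, peaks of replicate 2 and shared peaks of replicate 1, over these 2 libraries. The files do not pair IDs with names. The closest were ENSG00000117523 on chromosome 1, with 22, 17 and 11 and a summed tally of 190 over both libraries, and ENSG00000164190 on chromosome 5, with 21, 17 and 10 and a summed tally of 170. The third, ENSG00000145907, also on chromosome 5, had 18, 18 and 11 and a summed tally of 288. OIP5-AS1 had 21, 18 and 11 and a summed tally of 299, the last close to that of the third.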

How the data were processed

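CLIP-seq of MSI2 was done on NB4 cells in 2 libraries of 1 group. The build was hg19 and the tools named were STAR 2.3.0e, Bowtie 1.0.0 and cutadapt, per the submitters' processing notes; a peak caller is not named in the sources used here. The deposited lists, 1 per library, give each peak's position, name, strand and p-value, all under 0.05, and no source used here says whether the p was corrected. The deposited names end in the tally, a whole number of 3 or more of unstated meaning; library depth is unknown, and summed tallies describe called peaks. Wilson intervals (95%) rest on numbers of peaks alone.

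The members and lists were chosen with earlier results of these data known. No test was made between conditions, as there is 1 group. Peaks were matched on the same strand by overlap of 1 nt; the matching was tested on simulated data. Shared pairs named are all of a gene with up to 10, otherwise the 5 (with ties) with the highest lower tally, and the strongest unshared peaks. A list of other noncoding RNA symbols could not be matched to gene IDs with the tables used here, so no values are given for it. Alternatives covered the overlap rule, stricter lists, merged peaks and leaving out genes. Calculations were run with SciPy 1.17.1, pandas 2.3.3 and NumPy 2.4.6 in Python 3.11.15, and plots were drawn with matplotlib 3.10.9.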

Additional observations from a re-analysis of the deposited data

How the results depend on the processing

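Of 45 recomputed values, 39 stayed within the margin set for them, the Wilson interval for a share and a factor of 1.5 for a count, and 6 moved. Some could not move by construction, such as the count of genes with a shared peak when 1 gene is left out (7 to 6). The 39 are therefore not a measure of robustness. A reciprocal overlap of 50% lowered the shared shares to 40.6% in replicate 1 and 47.0% in replicate 2 (26.8% and 27.5% over all peaks), and overlap of the inner intervals to 14.6% and 16.9% (11.1% and 11.5%), stricter rules by construction. With the strongest 10% of each list by p, the share was 63.2% of 19 peaks in replicate 1 and 68.8% of 16 in replicate 2 (55.1% and 57.1% over all peaks). Under this cut 3 genes, MALAT1, OIP5-AS1 and SNHG1, kept a shared peak. A gene with no peak left in one list cannot have one, and the share over all gene IDs was not computed for this cut. Without MALAT1 the shares were 50.6% and 64.1%, and without NEAT1 59.8% and 65.8%. Leaving out peaks overlapped by another gene ID gave 53.9% and 60.0%; this alternative and requiring the same gene ID (53.1% and 62.7%) were chosen after seeing the data. All 7 genes had a peak without replicate 1 or without replicate 2 (7 to 7). No paired analysis was possible because both libraries belong to 1 group and no result comes from a test. Tallies of 3 to 5 limit what NEAT1 and GAS5 can show.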
